A study of Pan troglodytes with 217 samples.

Results

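The basement membrane genes COL4A1, COL4A2, LAMA1, LAMA5, LAMB1, LAMC1, NID1, NID2, HSPG2 and SPARC were followed across the 3 lineages of chimpanzee blastoids. They were chosen by symbol, and all 10 matched 1 Ensembl identifier each among the 33729 of the count table. All 10 passed the filter on rarely detected genes, which asked for reads in 20 cells. Blastoids are blastocyst-like structures grown from naive induced pluripotent stem cells of Pan troglodytes. Before aggregation the naive cells were kept in AE6 medium with the EZH2 inhibitor EPZ-6438, Activin-A, IL6, human LIF, Gö6983, XAV939 and PD032590. Aggregates then passed through media with PD, A83, LPA and Y-27632, and ended in N2B27 without inhibitors. On the fourth day most mural trophectoderm was cut away, and single cells were picked for SMART-seq2, a full-length cDNA method with 1 library per cell. Every cell therefore shares this 1 condition, including the earlier exposure to an inhibitor of PRC2, and neither line nor blastoid is given per cell. The cells form 1 sample without replicates, so no test was computed, and cells were not treated as replicates.

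Basement membranes are thin sheets of extracellular matrix under epithelia. Laminins are secreted as trimers of an alpha, a beta and a gamma chain and bind integrins and dystroglycan at the cell surface, while type IV collagen chains form trimers that join into a covalent network. Nidogens and perlecan link both networks, and SPARC binds collagens and is abundant where basement membrane is made. In the early embryo, endoderm derived from the hypoblast is known for its matrix output, and in rodents the parietal endoderm lays down a thick membrane of laminin and type IV collagen next to the trophoblast.

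Cells with at least 8000 detected genes were analysed, which left out 24, and the rest held 1679888 to 25630392 reads each with a median of 3960857. Clustering separated 50 epiblast-like cells, 32 hypoblast-like cells and trophectoderm-like cells, which fell into a larger cluster of 60 and a smaller one of 51. Each of the 11 epiblast, 12 hypoblast and 12 trophectoderm markers found in the table was highest, pooled over cells, in the class of its name. The same lists named the clusters, so this is partly built in. Of the 12 hypoblast markers, 11 reached 1 CPM in their class. Leaving the members and the other matrix genes described below out of the clustering put every cell in the same class as before. Median depth was 3951119 reads in epiblast-like, 3978822.5 in hypoblast-like and 3960857 in trophectoderm-like cells. Levels of a class are CPM, the counts of a gene per 1000000 counts on all genes, summed over its cells. Exact 95% Poisson intervals of CPM and exact 95% Clopper-Pearson intervals of shares cover counting error only. The Poisson intervals take reads as independent, although copies of 1 cDNA molecule are counted repeatedly, so they are too narrow. At least 5 trophectoderm markers together with at least 5 of another lineage were found in 14 epiblast-like, 9 hypoblast-like and 10 trophectoderm-like cells, and no doublet caller was run.

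**Figure D1:**
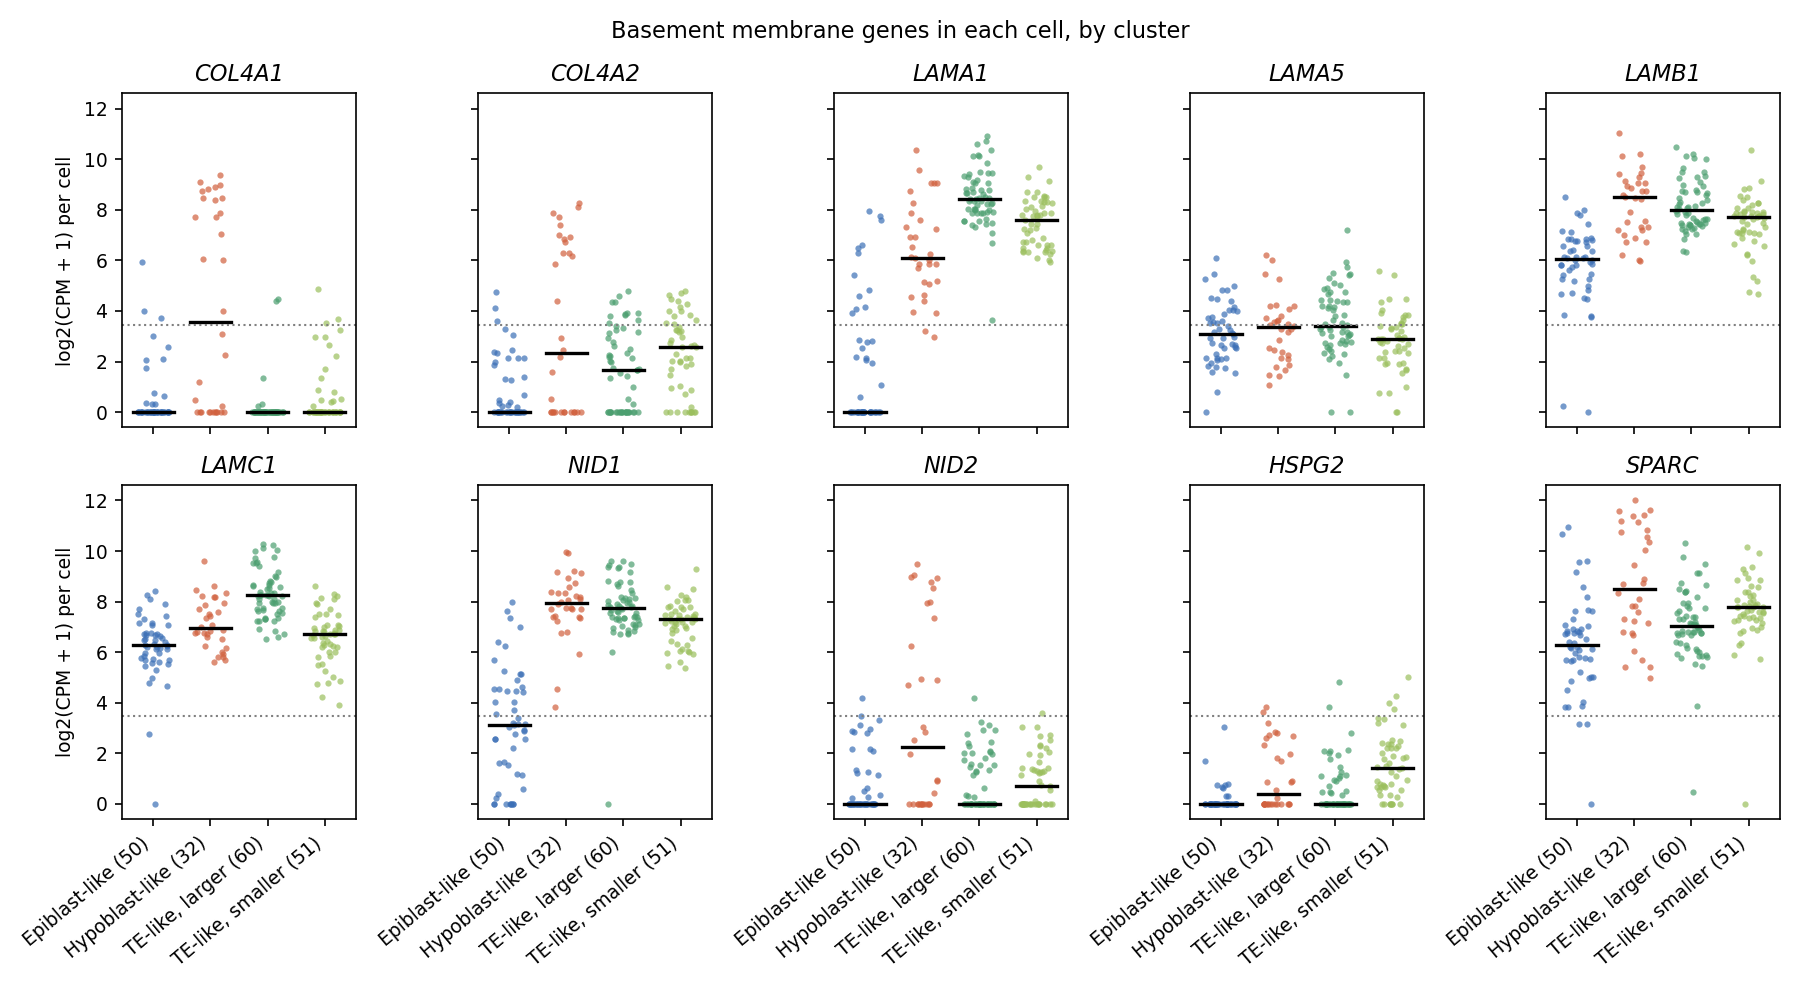
Each point is 1 cell, the y axis is log2(CPM + 1), black bars are medians over cells, and the dotted line marks 10 CPM. COL4A1, COL4A2 and NID2 reach high levels in a portion of the 32 hypoblast-like cells. LAMA1 is present in all trophectoderm-like (TE-like) cells and absent from most of the 50 epiblast-like cells. LAMA5 medians run from 6.42 CPM in the smaller to 9.72 CPM in the larger TE-like cluster, with the other clusters between.

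Hypoblast-like cells held over 2-fold more transcript than epiblast-like cells for all members but LAMA5 and LAMC1, and the type IV collagens, NID2 and SPARC were also higher there than in trophectoderm-like cells. Among the members higher than in epiblast-like cells, HSPG2 was near the limit of detection, at 2.02 against 0.330 CPM. Past 2-fold, on pooled log2(CPM + 1), 8 of 10 members were higher in hypoblast-like than in epiblast-like cells, beside 3.98% of the 15804 genes that passed the filter. No member was lower past 2-fold, against 10.7% of these genes. Against trophectoderm-like cells, 4 members were higher (8.58% of genes) and none was lower (8.18%). Between trophectoderm-like and epiblast-like cells, 6 members were higher in the former (7.60%) and none was lower (15%). The median log2 fold of the 10 members was 2.55, 0.44 and 1.29 in these comparisons, and that of all genes was -0.11, -0.02 and -0.07. These classes share cells between comparisons, and the pooled folds carry no replicate error.

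**Figure D2:**
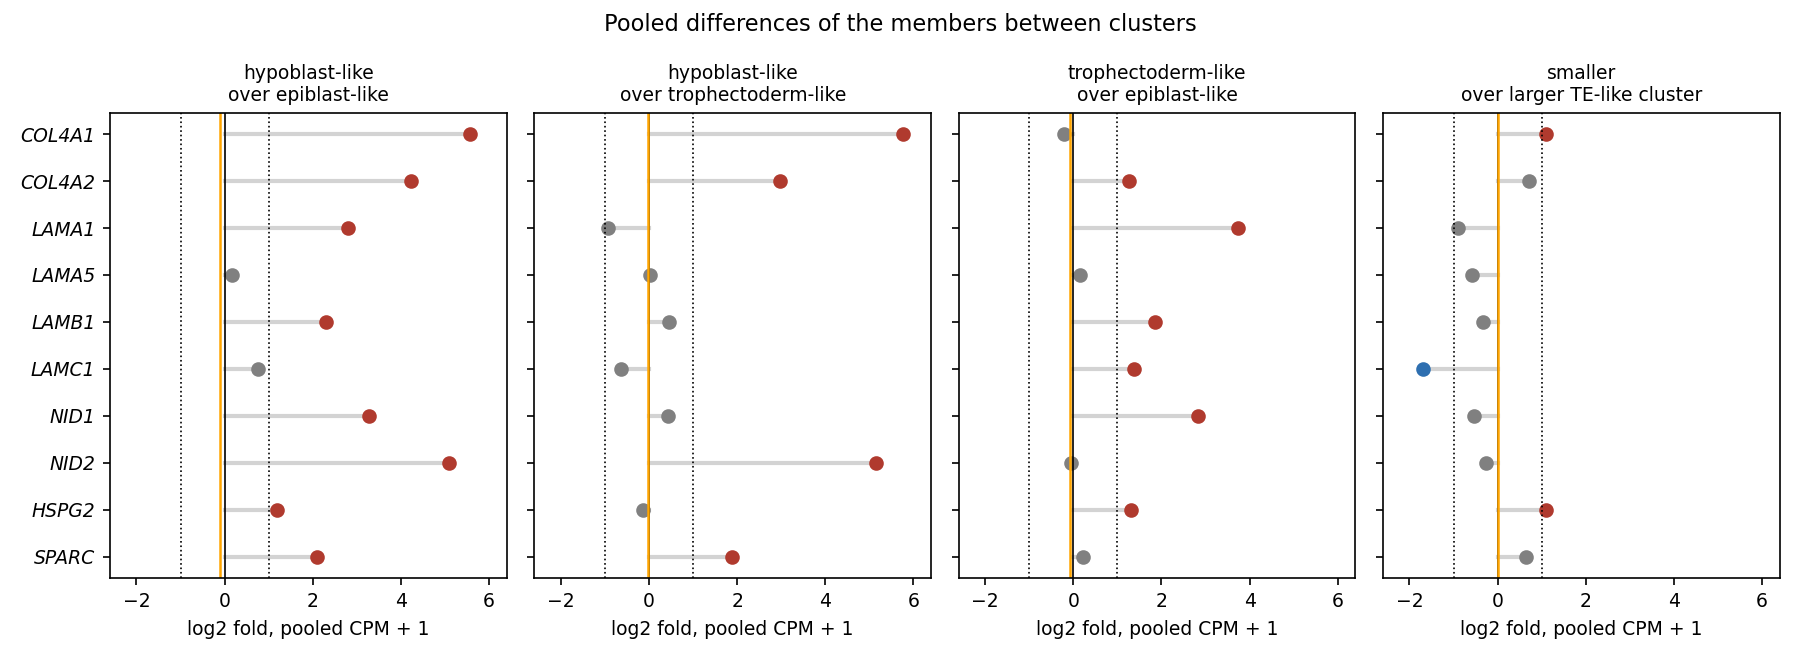
Log2 folds of pooled CPM + 1 for each member in 4 comparisons, with red and blue points past 2-fold (dotted lines), grey points within it, and the orange line at the median of all 15804 genes. COL4A1 has the largest folds of the members in both comparisons of hypoblast-like cells, 5.56 and 5.77, while LAMA5 stays within 2-fold throughout.

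LAMA1, the alpha chain of the first laminins of the embryo, divided the lineages most sharply among the laminin chains of the member list. In trophectoderm-like cells it ran from 11.6 to 1951 CPM per cell, with a median of 261.1, and every cell was at 10 CPM or more. In hypoblast-like cells it ran from 6.94 to 1311 CPM with a median of 68.2, and in epiblast-like cells from 0 to 245.7 CPM with a median of 0. The ranges overlapped between all classes, yet 10 CPM was reached by 12 of 50 cells in the epiblast-like class, by 30 of 32 in the hypoblast-like class and by all of the trophectoderm-like class. Pooled LAMA1 was 23.2 CPM (95% interval 22.5 to 23.8) for epiblast-like, 166.7 CPM (164.4 to 168.9) for hypoblast-like and 319 CPM (318 to 321) for trophectoderm-like cells. In epiblast-like cells 35.4% of the LAMA1 reads came from 1 cell. The log2 fold of pooled LAMA1 was 2.79 for hypoblast-like over epiblast-like and 3.73 for trophectoderm-like over epiblast-like cells. It was -0.93 for hypoblast-like over trophectoderm-like cells, short of 2-fold in the pooled values and past it in the per-cell medians, at -1.92.

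LAMB1 and LAMC1, the beta and gamma chains shared by most laminins of early embryos, were present in every lineage. LAMB1 had medians of 65.1, 360 and 217.1 CPM per cell in epiblast-like, hypoblast-like and trophectoderm-like cells, with ranges of 0 to 359, 61.6 to 2091 and 24.2 to 1441 CPM. The middle portions of hypoblast-like (145.4 to 537 CPM) and trophectoderm-like cells (155.5 to 333 CPM) overlapped, and that of epiblast-like cells (37.4 to 107.8 CPM) lay below both. LAMB1 was thus higher in hypoblast-like than epiblast-like cells by 2.30 on the log2 scale of pooled values, and higher in trophectoderm-like than epiblast-like cells by 1.85. LAMC1 rose less steeply across the lineages, with medians of 77.9, 122.8 and 183.6 CPM and pooled levels of 93.1, 157.1 and 242.7 CPM. Its log2 fold was 1.37 for trophectoderm-like over epiblast-like cells, and 0.75 for hypoblast-like over epiblast-like cells, short of 2-fold.

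LAMA5, the alpha chain of the laminin that is used as a culture substrate for pluripotent cells, did not separate the lineages. Its medians were 7.62, 9.20 and 7.99 CPM per cell in epiblast-like, hypoblast-like and trophectoderm-like cells, with highest values of 67.2, 72.2 and 146.6 CPM. LAMA5 was detected in 49 of 50 and 32 of 32 cells of the first classes and in 58 of 60 and 49 of 51 cells of the trophectoderm-like clusters. Pooled levels were 10.4 CPM (9.97 to 10.8), 11.7 CPM (11.1 to 12.3) and 11.6 CPM (11.3 to 11.9), and the largest of the 3 log2 folds between classes was 0.16.

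The nidogens, which bridge laminin and type IV collagen, went separate ways. NID1 was broad: its median was 7.81 CPM (0 to 251.7) in epiblast-like, 247.7 CPM (13.1 to 1003) in hypoblast-like and 172.8 CPM (0 to 782) in trophectoderm-like cells. It reached 10 CPM in 21 of 50 epiblast-like cells, in all hypoblast-like cells and in all trophectoderm-like cells but 1. NID2 reached 10 CPM in 13 of 32 hypoblast-like cells and in 2 cells of each other class. Within hypoblast-like cells NID2 ran from 0 to 713 CPM with a median of 3.90, and its highest values elsewhere were 17.2 CPM (epiblast-like) and 17.5 CPM (trophectoderm-like). Pooled NID1 was 27.8, 276 and 204.8 CPM, and pooled NID2 was 1.83, 94.9 and 1.72 CPM, in the same order of classes. NID2 was higher in hypoblast-like cells by 5.08 on the log2 scale over epiblast-like and by 5.14 over trophectoderm-like cells, whereas NID1 was higher by 3.27 over epiblast-like cells and by 0.43, within 2-fold, over trophectoderm-like cells.

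The type IV collagens, which form the network of the mature membrane, were also highest in hypoblast-like cells. COL4A1 ran from 0 to 667 CPM in hypoblast-like cells with a median of 11.3, and 16 of 32 cells reached 10 CPM (50%, 95% interval 31.9% to 68.1%). Its median was 0 in both other classes, where 3 of 50 epiblast-like cells and 2 of 60 and 3 of 51 cells of the trophectoderm-like clusters reached 10 CPM, with highest values of 59.6 and 28.5 CPM. The lower portion of the hypoblast-like cells therefore overlapped the other lineages in COL4A1, and the upper portion lay above every other cell. Pooled COL4A1 was 142.1 CPM (140.1 to 144.2) for hypoblast-like, 2.04 CPM (1.85 to 2.24) for epiblast-like and 1.62 CPM (1.51 to 1.73) for trophectoderm-like cells, and 1 cell gave 18.3% of the hypoblast-like reads.

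COL4A2, whose gene lies next to COL4A1 without overlap in the RefSeq annotation of assembly NHGRI_mPanTro3-v2.0, was less restricted. It ran from 0 to 307 CPM in hypoblast-like cells with a median of 4.02, and 14 of 32 reached 10 CPM. In trophectoderm-like cells it ran from 0 to 26.98 CPM with a median of 3.03. It was detected in 70.3% of them (60.9% to 78.6%), while COL4A1 was detected in 19.8% (12.9% to 28.5%). At 1 depth of 2532312 reads, which 100 of the trophectoderm-like cells reached, these shares were 70% for COL4A2 and 20% for COL4A1, so that the gap was as large at equal depth. Pooled COL4A2 was 1.98, 54.98 and 6.18 CPM in epiblast-like, hypoblast-like and trophectoderm-like cells. Its log2 fold for hypoblast-like over trophectoderm-like cells was 2.96 in the pooled values and 0.32, within 2-fold, in the per-cell medians. Of the reads on both genes, COL4A1 took 72.1% (71.6% to 72.7%) in hypoblast-like and 20.8% (19.5% to 22.1%) in trophectoderm-like cells, where 37.6% of the COL4A1 reads came from 1 cell. These shares are not corrected for transcript length, and only their difference between classes can be read.

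SPARC was detected nearly everywhere and was highest in a portion of hypoblast-like cells. It ran from 0 to 1961 CPM with a median of 77.4 in epiblast-like, from 30.6 to 4095 CPM with a median of 365 in hypoblast-like, and from 0 to 1294 CPM with a median of 167.2 in trophectoderm-like cells. Pooled SPARC was 216.8, 925 and 251.2 CPM, higher in hypoblast-like cells by 2.09 over epiblast-like and by 1.88 over trophectoderm-like cells on the log2 scale. In epiblast-like cells 31.1% of the SPARC reads came from 1 cell. HSPG2, the perlecan core protein, was near the limit of detection, with pooled levels of 0.330, 2.02 and 2.30 CPM and a highest cell of 31.04 CPM. HSPG2 was detected in 9 of 50 and 17 of 32 cells of the inner classes and in 23 of 60 and 43 of 51 cells of the larger and smaller trophectoderm-like clusters, and its 2-fold difference between hypoblast-like and epiblast-like cells was lost at 1 depth (log2 0.84).

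The chains that make up a trimer were then counted within single cells. All chains of laminin-111 (LAMA1, LAMB1 and LAMC1) reached 10 CPM together in 24% (13.1% to 38.2%) of the epiblast-like, 93.8% (79.2% to 99.2%) of the hypoblast-like and all (lower limit 96.7%) of the trophectoderm-like cells. For laminin-511, with LAMA5 in place of LAMA1, the shares were 38%, 43.8% and 39.6%, with overlapping intervals. They were 50% (36.8% to 63.2%) in the larger and 27.5% (15.9% to 41.7%) in the smaller trophectoderm-like cluster. Both type IV collagen chains were at this level in 14 of 32 hypoblast-like cells (43.8%, 26.4% to 62.3%), in 4 trophectoderm-like cells (3.60%, 0.99% to 8.97%) and in 0 of 50 epiblast-like cells, which allows a share of up to 6%. Each of those 14 and 4 cells also held LAMA1, LAMB1, LAMC1 and NID1. The number of members at 10 CPM was 0 to 7 per epiblast-like cell (median 4), 4 to 10 per hypoblast-like cell (median 6) and 5 to 9 per trophectoderm-like cell (median 6). The epiblast-like cell at the low end held 2 reads on all members together, with 5709772 reads and 9075 genes in all.

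**Figure D3:**
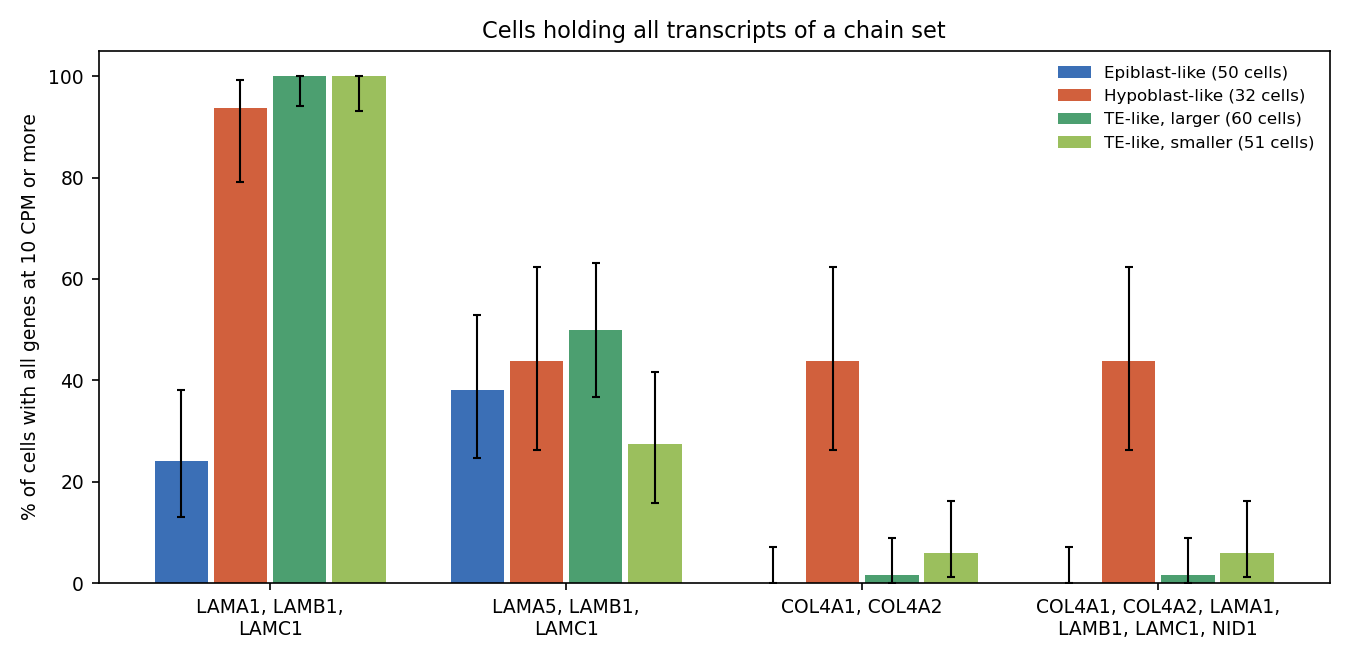
Bars give the percent of cells of each cluster with all transcripts of a set at 10 CPM or more, with exact 95% binomial intervals. Laminin-111 chains reach 93.8% of hypoblast-like and all trophectoderm-like (TE-like) cells, and both type IV collagen chains reach 43.8% of hypoblast-like cells and under 10% of every other cluster.

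Within the hypoblast-like class the members varied together. Across the 32 cells Spearman's rho was 0.94 between COL4A1 and COL4A2 and 0.90 between COL4A1 and SPARC. Over the 36 pairs of the 9 members other than LAMA5 it ranged from 0.45 to 0.94, with a median of 0.69. LAMA5 stood apart, with rho from -0.34 to 0.08 with the others. The cells share 1 sample and their levels are shares of a total, and rho of COL4A1 with total reads was -0.16 and with the number of detected genes -0.07.

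The same cells ranked high in hypoblast regulators. Spearman's correlation of COL4A1 across hypoblast-like cells was 0.86 with FOXA2, a transcription factor of mature hypoblast, 0.78 with GATA4 and 0.76 with RSPO3, a secreted enhancer of WNT signalling. It was 0.22 with GATA6, an early regulator of the lineage, 0.59 with the receptor PDGFRA, and -0.53 with the pluripotency factor POU5F1 and -0.46 with NANOG. FOXA2 split the class cleanly: 14 cells held 23.3 to 152.95 CPM, the other 18 held 0 to 2.52 CPM, and none lay between 5 and 20 CPM.

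COL4A1 ran from 64.9 to 667 CPM (median 351) in the 14 cells with FOXA2 and from 0 to 63.5 CPM (median 0) in the 18 without. COL4A2 ran from 20.04 to 307 CPM and from 0 to 6.65 CPM, and SPARC from 472 to 4095 CPM and from 30.6 to 430 CPM. In these 3 genes the values with and without FOXA2 did not overlap. NID2 reached 10 CPM in 13 of the 14 cells and in 0 of the 18. LAMA1 (medians 271 and 34.8 CPM), LAMB1 (596 and 151.8) and LAMC1 (228.5 and 108.4) were higher with FOXA2 and overlapped, as was NID1 (13.1 to 573 CPM in the 18 cells and 212.3 to 1003 CPM in the 14), while LAMA5 had medians of 5.51 and 10.6 CPM. PDGFRA was present at 10 CPM in all 32 cells, and GATA6 in 13 of the 14 with FOXA2 and 17 of the 18 without. GATA4 reached 10 CPM in 13 of the 14 and 4 of the 18, and RSPO3 in 14 and 8. NANOG reached it in 3 of the 14 and 13 of the 18, and the POU5F1 medians were 219.4 and 634 CPM. Median depth was 3510353.5 reads with FOXA2 and 4386432 without, and the split was made on these same cells, so it is a description. Within the 14 cells the median rho of the 36 pairs was 0.53 and within the 18 cells 0.11. In the 18 cells COL4A1, COL4A2, NID2 and HSPG2 had reads in only 5 to 7 cells each, which limits rho there. How much of the joint variation lay between these portions of the class was not tested.

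**Figure D4:**
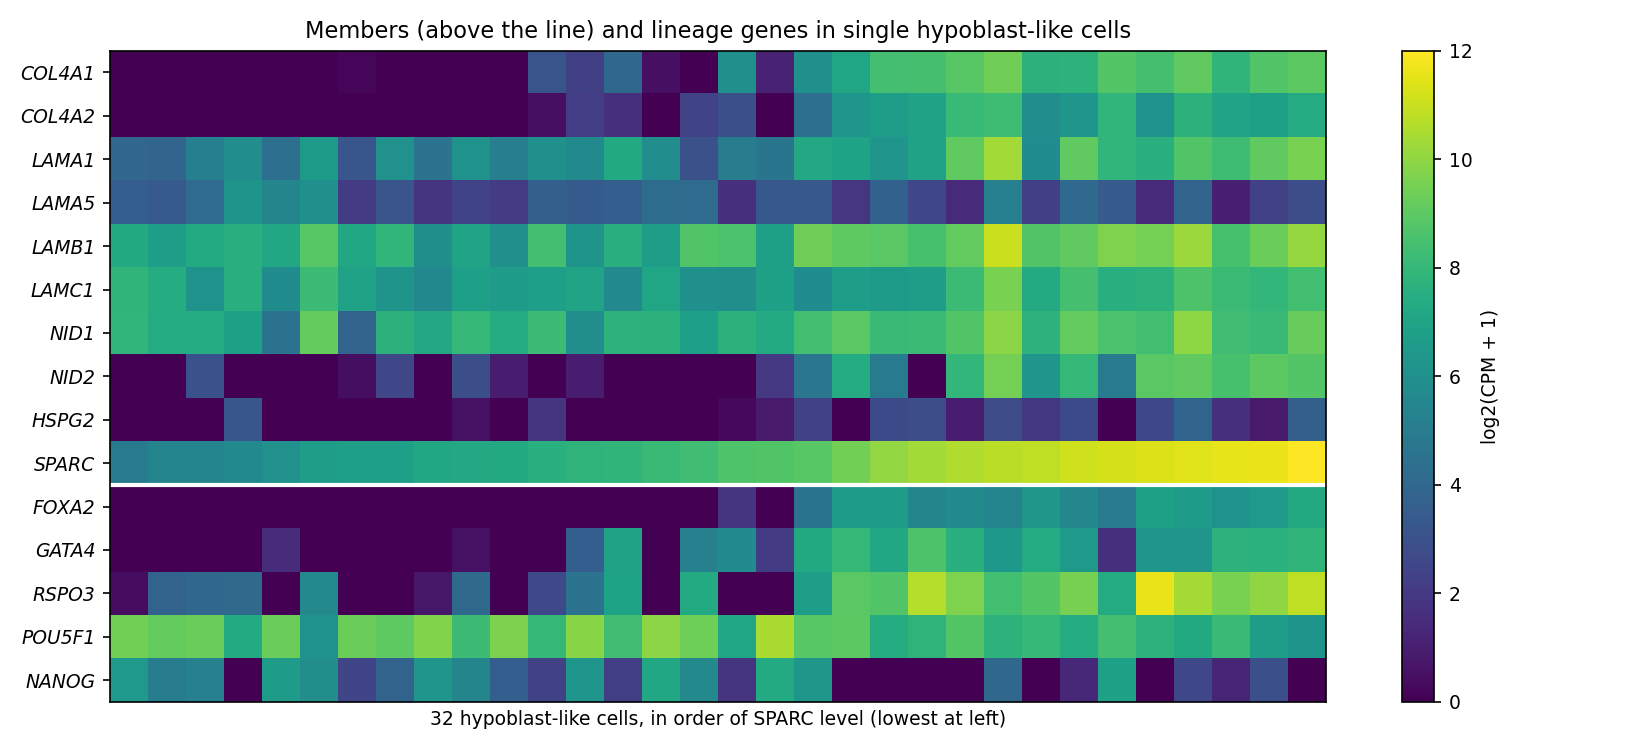
Colour gives log2(CPM + 1) of the members and, below the white line, of FOXA2, GATA4, RSPO3, POU5F1 and NANOG in the 32 hypoblast-like cells, in order of SPARC. COL4A1 and COL4A2 appear together with FOXA2 in the 14 cells at the right, NID2 is seen in 13 of these, while LAMB1, LAMC1 and NID1 are present in all cells.

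In trophectoderm-like cells the members fell into separate sets. LAMA1, LAMA5, LAMB1, LAMC1 and NID1 varied together, with rho from 0.64 to 0.79 over their 10 pairs across all cells of the class, from 0.64 to 0.80 within the larger cluster and from 0.53 to 0.81 within the smaller. LAMA5 thus ranked with the other laminin chains in trophectoderm-like cells, unlike in hypoblast-like cells. COL4A1 and COL4A2 had a rho of 0.37 with each other and of -0.33 and -0.24 with LAMC1. The laminin set was lower in cells with more detected genes, with rho of -0.42 for LAMA1, LAMB1 and NID1 and -0.41 for LAMC1. The part of detected genes or of depth in the joint variation was not tested. In epiblast-like cells the 45 pairs had a median rho of 0.13, and the strongest was 0.66 between LAMB1 and LAMC1.

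**Figure D5:**
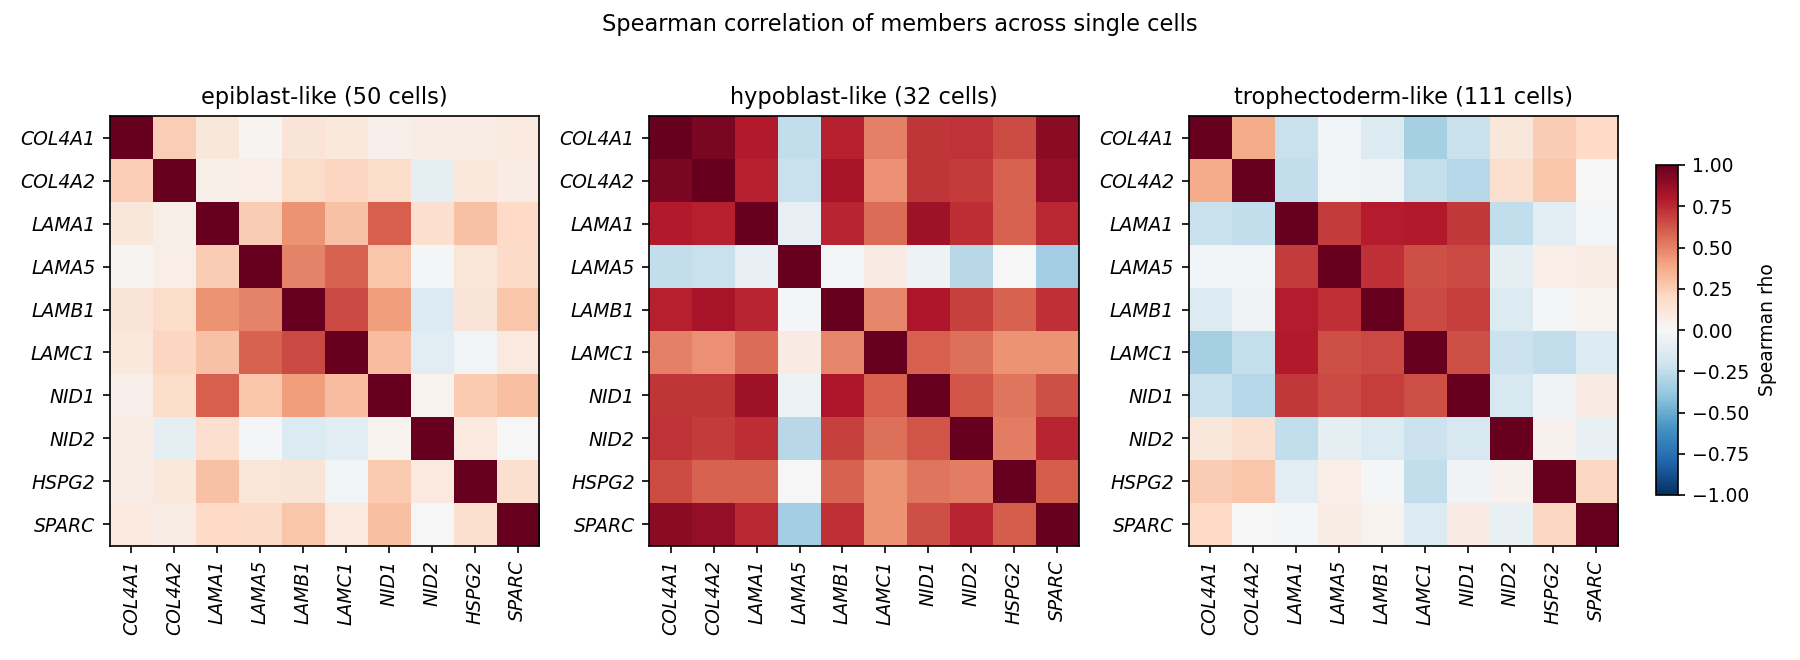
Spearman correlations between members across single cells of each class (red positive, blue negative). In hypoblast-like cells all members but LAMA5 correlate, in trophectoderm-like cells the 4 laminin chains and NID1 form a block, and in epiblast-like cells most pairs lie near 0.

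Among the members the 2 trophectoderm-like clusters differed most in LAMC1. It ran from 91.1 to 1228 CPM (median 303) in the larger cluster of 60 cells and from 13.9 to 396 CPM (median 103.4) in the smaller of 51, which overlapped. Pooled, it was 366 and 111.9 CPM, so that LAMC1 was lower in the smaller cluster by a log2 fold of -1.70, the 1 member lower past 2-fold (3.97% of genes). LAMA1 was also lower in the smaller cluster, at 221.1 against 412 CPM pooled (log2 -0.89). The label of the smaller cluster was given by its higher pooled CCR7, a chemokine receptor of polar trophectoderm, so the difference in CCR7 is built in. Across both clusters rho of LAMC1 was -0.71 with CCR7 and 0.50 with CDX2, which includes the difference between the clusters. COL4A1 and HSPG2 were higher past 2-fold in the smaller cluster (5.49% of genes), at 2.60 against 0.693 CPM and 3.54 against 1.13 CPM. Without the cell of each cluster with the most, COL4A1 was within 2-fold (log2 0.76), and 48.2% of its reads in the smaller cluster came from 1 cell. The border between the clusters depends on the order of the cells in the table: sample number order gave 72 and 39 cells, with LAMA1 then lower past 2-fold (-1.14) and HSPG2 within it (0.42).

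LAMA1 varied among epiblast-like cells together with a trophectoderm transcript. Spearman's correlation of LAMA1 across the 50 cells was 0.67 with GATA3, a trophectoderm transcription factor, and -0.52 with POU5F1. In the 10 epiblast-like cells with at least 100 CPM of GATA3, LAMA1 ran from 0 to 245.7 CPM with a median of 84.04, and in the other 40 from 0 to 42.1 CPM with a median of 0. Pooled LAMA1 was 102.3 and 3.57 CPM in these sets, and pooled NID1 71.8 and 16.8 CPM, whereas SPARC was 79.4 and 250.9 CPM. Whether such cells hold material of a trophectoderm cell was not tested. Without cells of the inner classes at this GATA3 level, the share of epiblast-like cells with all laminin-111 chains was 10%, and LAMA1 was higher in hypoblast-like than in epiblast-like cells by 4.86 on the log2 scale.

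Genes whose pattern was most like the members were ranked by Pearson correlation of log2(CPM + 1) over all cells analysed, as a description. Nearest to the mean of the members were SCD (0.69), CALD1 (0.68), CD99 (0.68), AHNAK (0.67), MYOF (0.65), ATP13A3 (0.63) and TXN (0.63) among 8558 genes. The nearest gene to COL4A1 was GATA4 (0.80), to LAMA1 CD99 (0.89), to NID1 REEP5 (0.81), and to both NID2 (0.66) and SPARC (0.56) DPP4. COL4A2 also had GATA4 (0.58), LAMB1 had SCD (0.73), LAMA5 had SREBF2 (0.63) and HSPG2 had TYRO3 (0.42). Within the 32 hypoblast-like cells the nearest to the mean of the members were FRZB (0.88), a secreted WNT antagonist, COL18A1 (0.85), DPP4 (0.83), RSPO3 (0.83) and EGFLAM (0.82).

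Of 12 other type IV collagen and laminin chains, only LAMA4 reached 10 CPM in a class. Its pooled level was 1.34, 29.003 and 0.312 CPM in epiblast-like, hypoblast-like and trophectoderm-like cells. Past 2-fold, 1 of the 8 chains tested was higher and 3 (LAMA2, LAMB2 and LAMC3, all low) were lower in hypoblast-like than in epiblast-like cells, beside 3.98% and 10.7% of all genes. Among 14 other basement membrane proteins tested, 3 were higher in hypoblast-like than epiblast-like cells, namely fibronectin (FN1, 130.6 against 35.2 CPM), the dystroglycan ligand pikachurin (EGFLAM, 71.5 against 4.10) and COL18A1 (31.7 against 1.58), and FBLN5 was lower. The shares of all genes were again 3.98% and 10.7%. Against trophectoderm-like cells 5 of the 14 were higher and 7 lower in hypoblast-like cells (8.58% and 8.18% of all genes), with a median log2 fold of -0.58. The 7 were COL7A1, FBLN1, FBLN2, FBLN5, TINAGL1, FREM2 and TGFBI. Trophectoderm-like cells had 5.29 CPM of FN1, 3.66 of EGFLAM and 3.29 of COL18A1, and held more TINAGL1, at 13.6 CPM against 1.198 in hypoblast-like cells.

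Some of the enzymes and chaperones that fold and crosslink collagen were lower in trophectoderm-like cells. Of 19 tested, 5 were higher past 2-fold in hypoblast-like than in trophectoderm-like cells and none was lower (8.58% and 8.18% of all genes), with a median log2 fold of 0.27 beside -0.02 for all genes. The prolyl hydroxylase subunit P4HA1 was at 85.3, 151.8 and 8.61 CPM in epiblast-like, hypoblast-like and trophectoderm-like cells, the lysyl hydroxylase PLOD2 at 92.98, 98.5 and 13.9 CPM, and the collagen chaperone SERPINH1 at 149.1, 269.9 and 50.9 CPM. Between hypoblast-like and epiblast-like cells none of the 19 was higher (3.98%) and LOXL1 and LOXL2 were lower (10.7%). These counts lie near the shares of all genes and are not read as a contrast with the type IV collagens. The log2 folds of P4HA1, SERPINH1 and PLOD2 in this comparison were 0.82, 0.85 and 0.08, all short of 2-fold.

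Genes of heparan sulfate synthesis and remodelling differed one by one. In hypoblast-like over epiblast-like cells 4 of 16 tested were higher and 2 were lower past 2-fold, beside 3.98% and 10.7% of all genes. Heparanase (HPSE) was at 40.6 CPM in hypoblast-like cells against 5.11 and 4.07 CPM in epiblast-like and trophectoderm-like cells. The sulfatase SULF2 was at 16.6, 67.3 and 57.4 CPM and the sulfotransferase HS6ST1 at 63.9, 10.7 and 5.30 CPM in epiblast-like, hypoblast-like and trophectoderm-like cells, and EXT1 was at 4.57, 11.5 and 3.04 CPM.

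Receptors of the basement membrane differed in both directions. Of 15 tested, 4 were higher and 2 lower in hypoblast-like than in epiblast-like cells (3.98% and 10.7% of all genes), and 4 higher and 5 lower in trophectoderm-like than in epiblast-like cells (7.60% and 15%). The integrin chain ITGB3 was at 76.6, 121.8 and 7.69 CPM in the order used above, and the hyaluronan receptor CD44 at 2.95, 12.3 and 0.0368 CPM. In the smaller trophectoderm-like cluster the syndecan SDC1 was at 78.5 CPM against 2.47 CPM in the larger, and ITGA1, which binds collagens and laminin, at 14.96 against 0.0678 CPM.

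Among matrix proteases and their inhibitors, more genes were higher than lower in trophectoderm-like cells. Past 2-fold, 8 of 16 tested were higher and 3 lower there than in epiblast-like cells (7.60% and 15% of all genes), and 8 were lower and 2 higher in hypoblast-like than in trophectoderm-like cells (8.18% and 8.58%). The cathepsin CTSL was at 165.3, 131.2 and 1524 CPM in epiblast-like, hypoblast-like and trophectoderm-like cells, the urokinase PLAU at 42.5, 12.9 and 102.8 CPM, ADAMTS1 at 1.83, 26.8 and 54.7 CPM, and the inhibitor TIMP2 at 11.8, 3.37 and 34.5 CPM.

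Markers of other matrix-producing cells were read beside these values. Of 11 fibroblast markers found, 2 reached 10 CPM in a class, THY1 (28.2 CPM, epiblast-like) and COL5A1 (15.8 CPM, hypoblast-like). The fibrillar collagens COL1A2 and COL3A1 had 0 reads in hypoblast-like cells. COL1A1 was at 1.45, 0.576 and 3.06 CPM in epiblast-like, hypoblast-like and trophectoderm-like cells, lower in hypoblast-like than in trophectoderm-like cells past 2-fold. The fibroblast list summed to 0 to 192.1 CPM per hypoblast-like, 0 to 147.8 per epiblast-like and 0 to 79.3 per trophectoderm-like cell. None of 10 visceral or yolk sac endoderm markers reached 10 CPM in any class. The parietal endoderm list shares 7 of its 10 genes with the members, and the other 3 are THBD, PTH1R and SNAI1. PTH1R had 30.5 CPM pooled over epiblast-like and 0.615 CPM over hypoblast-like cells. Of the 10 list genes, 9 were at 1 CPM in epiblast-like cells and 8 in hypoblast-like and in trophectoderm-like cells.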

How the data were processed

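SMART-seq2 libraries of 217 single cells were used, with the members and gene lists chosen while earlier results of these data were known. The authors deposited read counts per Ensembl gene, not normalized and without molecular identifiers. The paper's methods name FastP, STAR and the chimpanzee genome, whereas the submitters' processing notes list Trim Galore 0.6.6, STAR 2.7.7a and GRCh38. The identifiers are chimpanzee ones. Symbols covered 18783 identifiers. No other measurement columns were present.

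Cells with at least 4000 reads and 8000 detected genes were kept, which left more cells than the study states. Genes with a read in at least 20 cells entered Scanpy 1.11.5 (log1p of counts scaled to the median total, 50 components, 30 neighbours) and Leiden clustering (leidenalg 0.10.2, resolution 1, seed 0). Clusters were named from mean standardized levels of 3 marker lists, and the trophectoderm-like cluster with the higher pooled CCR7 was called the smaller. Folds are log2 of pooled CPM + 1, called past 2-fold without a test, because 1 sample gives no replicate error. Where a share is 0, the limit of 3 counts is printed. Fold and clustering code was checked on simulated counts. Genes outside the member list were named where at 10 CPM in a class and past 2-fold in a comparison, at most 4 per list by largest fold between classes. FOXA2 and GATA3 splits, FBLN5 and the other genes listed as lower beside it, COL1A1, LOXL1 and the low LAMA2, LAMB2 and LAMC3 were chosen after their values were seen. Alternatives covered cell and gene filters, clustering settings, summaries, pseudocount, size factors, depth, doubtful cells and thresholds. A gene among those most like the members is not reported here.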

Additional observations from a re-analysis of the deposited data

Results flagged for a closer look

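The 24 cells left out for few detected genes were used in no comparison above, and they held basement membrane transcripts too. At least 3 members were at 10 CPM or more in 20 of them (83.3%, exact 95% interval 62.6% to 95.3%), and in 46 of 50 epiblast-like and all other cells analysed above. The shallowest of the cells left out held 5792 reads, where 1 read is over 10 CPM. LAMB1 reached 10 CPM in 21 of the 24 cells, LAMC1 in 18, LAMA1 in 16 and NID1 in 16, whereas COL4A1 and NID2 did so in 3 each. Their median depth was about 1661000 reads and their median number of detected genes 6894. These cells have no lineage name here.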

How the results depend on the processing

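Of 272 values of the 15 main results under the alternatives, 235 stayed within the limits set (counts within 1.5 times) and 37 moved. Nearly all of these results are counts or shares, which have no direction that could change. The count of members higher in hypoblast-like than epiblast-like cells stayed at 7 or 8, and that over trophectoderm-like cells at 3 or 4, with COL4A2 lost under per-cell medians (log2 0.32). LAMA1 became the 1 member lower in hypoblast-like than trophectoderm-like cells with per-cell medians, means of log2 values, 1 depth, without the top cells, and without inner cells holding GATA3. At 4-fold in place of 2-fold, 2 members were higher in trophectoderm-like than epiblast-like cells. Between the trophectoderm-like clusters the counts of 2 higher and 1 lower were the least stable. Cell filters, the gene filter, 15 neighbours, resolution 0.5, 20 components, means of CPM, sample number order and leaving out the deepest cells gave 1 higher and 2 lower. Clustering on the most variable genes, per-cell medians, 1 depth and leaving out the top cells gave 1 higher, a pseudocount of 10 CPM 0 higher, means of log2 values 0 higher and 2 lower, and 4-fold 0 of both. The share of epiblast-like cells with all laminin-111 chains was 11.1% without cells holding markers of 2 lineages, 10% without GATA3-positive inner cells and 42% at 1 CPM, where hypoblast-like cells reached 100%. Sample number order and the GATA3 exclusion were chosen after seeing the data. No member past 2-fold changed sign. No paired analysis was possible because all cells belong to 1 group and no test was made. With 1 sample, no interval covers differences between blastoids or lines, and levels under about 1 CPM rest on few reads.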
